A study of Mus musculus with 15 samples.

Results

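Knocked-down mouse embryonic stem cells (ESC) sampled 72 h after induction of the Smarcb1 knockdown (72 h kd) were compared with cells of the same line sampled 48 h after induction (48 h kd), with no control group in the comparison. The members were the libraries whose titles name 72 h (kd) or 48 h (kd), 3 of each, which are 6 of the 15 RNA-seq libraries of the series. The cells were 81K1, a single clone derived from the ESC line OG2, in which an shRNA against Smarcb1 was placed in the Rosa26 locus and is transcribed when doxycycline is present. Both groups received 1 µg doxycycline per ml medium each day and were kept with LIF and serum on gelatine. The remaining 9 libraries, named below only for their levels, were untreated cells of the same line (48 h ctrl and 240 h ctrl) and cells treated for 240 h (240 h kd), and all 5 groups carry the shRNA cassette. No 72 h ctrl group was used here and cells were moved to new plates every other day, so that a longer knockdown cannot be told apart from a different time after plating. The labels do not say whether libraries of 1 group came from separate cultures, and p-values measure the spread between these libraries only.

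Smarcb1 is a core subunit of BAF complexes, which use ATP to move nucleosomes and thereby open promoters and enhancers. In ESC, the ESC-specific form (esBAF) works beside the pluripotency factors. Loss of the subunit is best known from rhabdoid tumours. The comparison of 72 h with 48 h kd asks which transcripts differed between a later and an earlier sample at which the target mRNA was already low.

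The deposited values are FPKM per gene over the whole gene span, introns included. The whole reads behind them could be recovered, and the 6 libraries held 11074998 to 13277221 reads. A gene was tested when it had a mean of at least 10 reads over the 6 libraries, which 16104 of 55228 listed genes had. Reads were counted irrespective of strand, and 1163 of the called genes overlap another listed gene, 524 of them one with more reads. Of the genes named in the results, Car14, Khdc3, Nefl, Tm7sf2, Cpt1b, Acadvl, Pfkm, Ccne2, Tubb3, Dusp1, Kcnq1ot1, Nnat, Airn, B2m, Rmrp, Hist3h2a, Ctsa, Fdps and Sox2 overlap such a gene, and their values are uncertain for that reason. The second 48 h kd library stood apart from the others. Its share of mitochondrial reads was 2.35%, against 0.861% to 1.19% in the other 5 libraries. Its median absolute difference from the other 2 libraries of its group was 0.156 on the log2 scale, against 0.0742 to 0.118 for the others. Calls and counts that change without it are therefore named. Of the called genes named in the results, Dppa5a, Lifr, Krt18, Sox11, Phlda3, Btg2, Dusp4, Jun, H19, Dpf1, Hist1h2be, Ctsb, Npc2, Dlk1, Usp29, Fdps, Id3 and Plin2 were not called without it, and Rxrg could not be tested. Scg3, Stra6, Rxrg, Hoxc13, Hoxd13, Rmrp and Hist1h4i had a mean under 10 reads in their lower group and passed the minimum through the other group.

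All 6 libraries had the markers of ESC. The 8 ESC markers examined (Pou5f1, Sox2, Nanog, Zfp42, Esrrb, Dppa5a, Utf1 and Tdgf1) passed the read minimum, and their summed level was 4885 to 5515 RPM (reads scaled to a library of 1000000) at 48 h kd and 5843 to 6026 RPM at 72 h kd. Of these 8, Dppa5a was called higher, by 0.65 on the log2 scale, and it was not called without 48 h kd replicate 2 (0.57). The summed level of 10 fibroblast markers was 8.95 to 10.6 RPM at 48 h kd and 10.7 to 11.6 RPM at 72 h kd. Of these 10, 4 passed the read minimum, none was at 0 in all 6 libraries and Pdgfrb was called higher at a mean of 19.7 reads. The part of other cells in the results was not tested.

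Smarcb1 itself was low on both days. It lies on chr10:75896769-75921617 (GRCm38) and measured 0.503, 0.82 and 0.618 FPKM in the 48 h kd libraries and 0.541, 0.639 and 0.512 FPKM in the 72 h kd libraries, where the mean of the 48 h ctrl libraries was 3.6 ± 0.29 FPKM (SD, n = 3). The groups overlapped, and the log2 fold change of 72 h over 48 h kd was -0.17 (SE 0.18, limma adjusted p = 0.486). Without 48 h kd replicate 2, the highest of the 6, it was 0.0099. The change was smaller than its SE, and no further depletion of the Smarcb1 transcript between 48 h and 72 h was measurable at 144 to 239 reads per library.

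Bc1, the brain cytoplasmic RNA, had the largest change of the 3 marker genes of this comparison. It is a small non-coding RNA that RNA polymerase III transcribes and that is best known from the dendrites of neurons. It has 168 bases at chr7:144914470-144914637 (GRCm38, + strand), overlaps no other listed gene and is shown here because its whole sequence is the measured feature, as in the GENCODE M21 transcripts, with no capitals marked.
Bc1 RNA: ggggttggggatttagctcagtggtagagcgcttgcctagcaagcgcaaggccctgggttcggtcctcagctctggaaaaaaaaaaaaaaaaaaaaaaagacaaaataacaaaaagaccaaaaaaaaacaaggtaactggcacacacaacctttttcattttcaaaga
Bc1 measured 481, 799 and 629 FPKM at 48 h kd and 102, 168 and 138 FPKM at 72 h kd. The groups did not overlap, and Bc1 fell by 2.22 on the log2 scale (SE of 0.24, limma adjusted p = 0.00136). The second 48 h kd library was the highest of its group, and without it the change was -2.04. In the other groups the mean was 312 FPKM at 48 h ctrl, 300.4 FPKM at 240 h ctrl and 590.0 FPKM at 240 h kd. The 72 h kd libraries were therefore the lowest of all 15, while both the 48 h kd and the 240 h kd libraries lay above the untreated ones.

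Fabp3 and Apoe rose. Fabp3 encodes the heart-type fatty acid-binding protein, which carries fatty acids in the cytosol, and lies on chr4:130308595-130315463. It measured 5.56, 4.79 and 5.23 FPKM at 48 h kd and 11.9, 12 and 11.6 FPKM at 72 h kd, 2.28-fold higher (log2 1.19, SE 0.062, limma adjusted p = 0.000236). Its span touches Zcchc17, which had a mean of 383 reads where Fabp3 had 724. Apoe encodes apolipoprotein E, the carrier of cholesterol between cells, and lies on chr7:19696109-19699188 with no overlapping gene. It measured 352, 274 and 329 FPKM at 48 h kd and 616, 628 and 631 FPKM at 72 h kd (log2 0.98, SE 0.11, limma adjusted p = 0.00145). For both genes the 3 libraries of 72 h kd lay above all 3 of 48 h kd, and without 48 h kd replicate 2 the changes were 1.13 and 0.88. Across the series their paths parted at 240 h. The mean of Fabp3 was 5.77 FPKM at 48 h ctrl and 2.15 FPKM at 240 h kd, and that of Apoe was 124 and 222 FPKM, so that at 240 h kd Fabp3 was under and Apoe over the untreated level. For both genes 72 h kd was the highest of the 5 groups, with no test of that order.

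**Figure D1:**
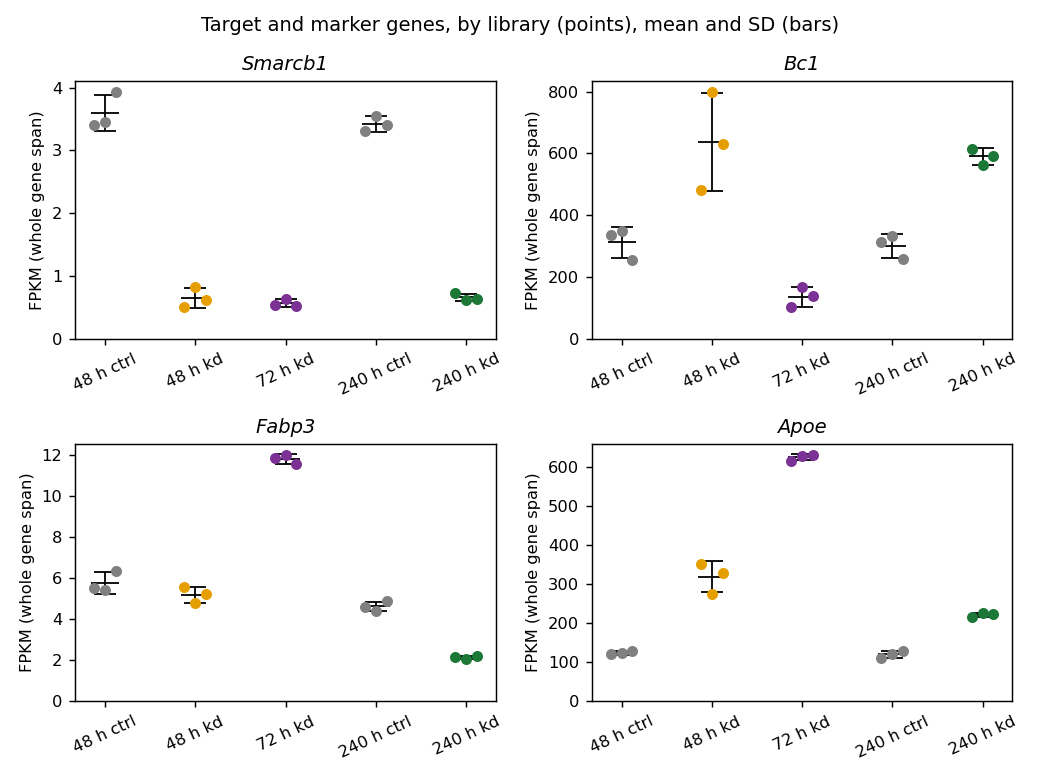
FPKM of Smarcb1, Bc1, Fabp3 and Apoe in all 15 libraries (points), with the mean and SD of the 3 libraries of each group (bars). Smarcb1 was low in all 9 kd libraries, Bc1 was lowest and Fabp3 and Apoe were highest at 72 h kd.

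A change of more than 0.58 on the log2 scale (about 1.5-fold) at a limma adjusted p-value under 0.05 was called. The test of 16104 genes called 2022 (12.6%), of which 1101 (6.84%) were higher at 72 h kd and 921 (5.72%) were lower. Groups did not overlap for 8601 genes (53.4%), and for 2016 of the 2022 genes called. The median change over all genes tested was 0.023 on the log2 scale. Most of the calls were moderate, since 607 genes passed a change of more than 1 on the log2 scale, 270 higher and 337 lower. Rescaled to TPM, 1422 genes were called higher and 784 lower, so that the share of rises among the calls was 64.5% in place of 54.5%, while with the median change set to 0, 947 were called higher and 1076 lower (46.8% rises), so that the scaling decides which direction holds more calls.

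Without 48 h kd replicate 2, 16035 genes were tested, and 1191 (7.43%) were called higher and 739 (4.61%) lower. Of the 2022 genes called with 6 libraries, 1977 could still be tested, and 1602 of them (81%) were called again in the same direction, 934 higher and 668 lower. None of the 1977 changed its sign. Leaving out another library kept a like share, between 78.7% and 87.6%. Of the 375 genes that lost the call, 229 had a change at or under 0.58 without the library and 182 an adjusted p of 0.05 or more, and their median absolute change with 6 libraries was 0.66.

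**Figure D2:**
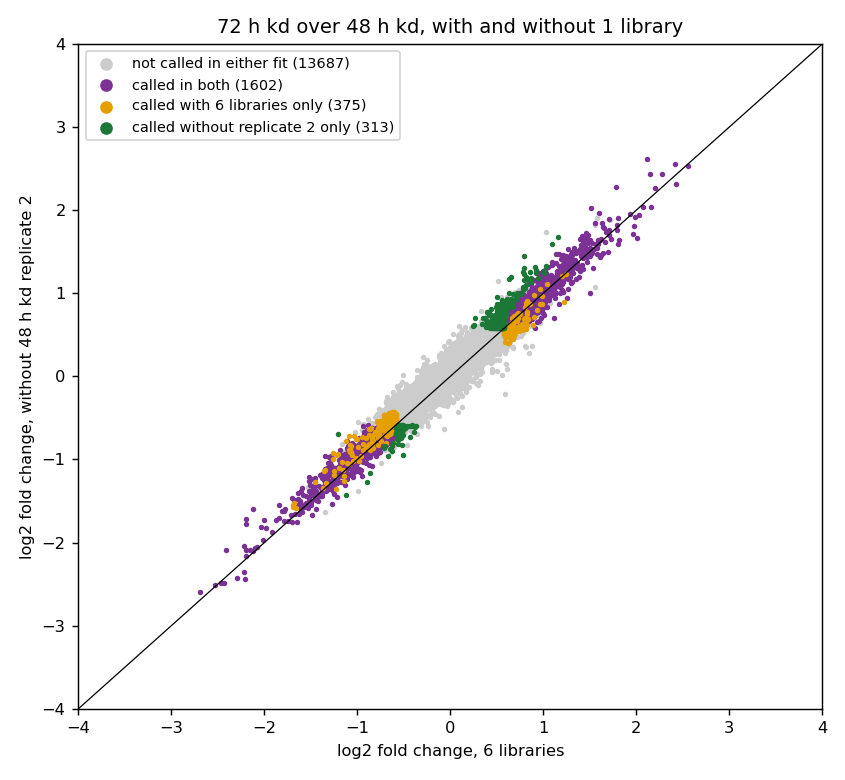
Log2 fold change of 72 h kd over 48 h kd for the 15977 genes tested in both fits, with all 6 libraries (x axis) and without 48 h kd replicate 2 (y axis), where the line marks equal values. Genes called in both fits (1602) follow the line, and the 375 called only with 6 libraries and the 313 called only without the library lie mostly close to the threshold of 0.58.

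The rule for the largest changes took protein-coding genes called in both fits, not predicted, with at least 50 reads, groups that did not overlap and no overlapping gene with more than 20% of their reads. By it 409 genes rose and 193 fell. The 10 largest rises are given first. Cpz, a secreted carboxypeptidase, measured 0.0887, 0.0872 and 0.0654 FPKM at 48 h kd and 0.373, 0.348 and 0.42 FPKM at 72 h kd, the largest rise (log2 2.20, SE 0.15). Ap3b2, the neuronal subunit of the AP-3 adaptor that sorts vesicle cargo, went from 0.202, 0.214 and 0.259 to 0.976, 0.915 and 0.953 FPKM (log2 2.07, SE 0.11). Sdc4, the heparan sulfate proteoglycan syndecan 4, had a narrow spread at 72 h kd, with 3.1, 2.44 and 2.61 FPKM at 48 h kd and 8.93, 8.92 and 8.96 FPKM at 72 h kd (log2 1.72, SE 0.088). The other rises were Egr1 and Fos, both transcription factors of the immediate early response, Got1l1, Sez6, Rab3il1, Col5a3, a chain of type V collagen, and Cdkn2a, with changes between 1.58 and 2.02. Their limma adjusted p-values were between 0.000236 and 0.00181. Egr1 varied most, with 10.1, 6.1 and 6.03 FPKM in the 72 h kd libraries, of which the first stood above the other 2.

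Of the 10 largest falls, Tmsb4x, thymosin beta 4, which binds actin monomers, had the most reads and a narrow spread, with 85.6, 82.6 and 90 FPKM at 48 h kd and 28.1, 28 and 27.3 FPKM at 72 h kd (log2 -1.63, SE 0.05). Its mean at 48 h ctrl was 194 FPKM, above both kd groups. Inhbb, the beta B subunit of inhibin and activin, went from 12.3, 14.1 and 13.4 to 4.11, 4.42 and 4.47 FPKM (log2 -1.61, SE 0.064). Grb10, an imprinted adaptor of insulin receptor signalling, went from 0.494, 0.489 and 0.5 to 0.157, 0.154 and 0.171 FPKM (log2 -1.62, SE 0.083). The ranges of the 2 days did not overlap, as the rule for these genes required. Pdyn, which encodes the opioid precursor prodynorphin, had the largest fall of the 10 (log2 -2.12, SE 0.26) at a mean of 50.5 reads. Rfx4, a transcription factor of the neural tube, fell by 1.92 on the log2 scale to a mean of 0.0251 FPKM, where 48 h ctrl was at 0.0242 FPKM. Tnfsf11, Dpp6, Ccnd2, Dgkb and Mcc fell by 1.45 to 1.70 on the log2 scale, and the limma adjusted p-values of the 10 falls were between 0.000102 and 0.00314.

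**Figure D3:**
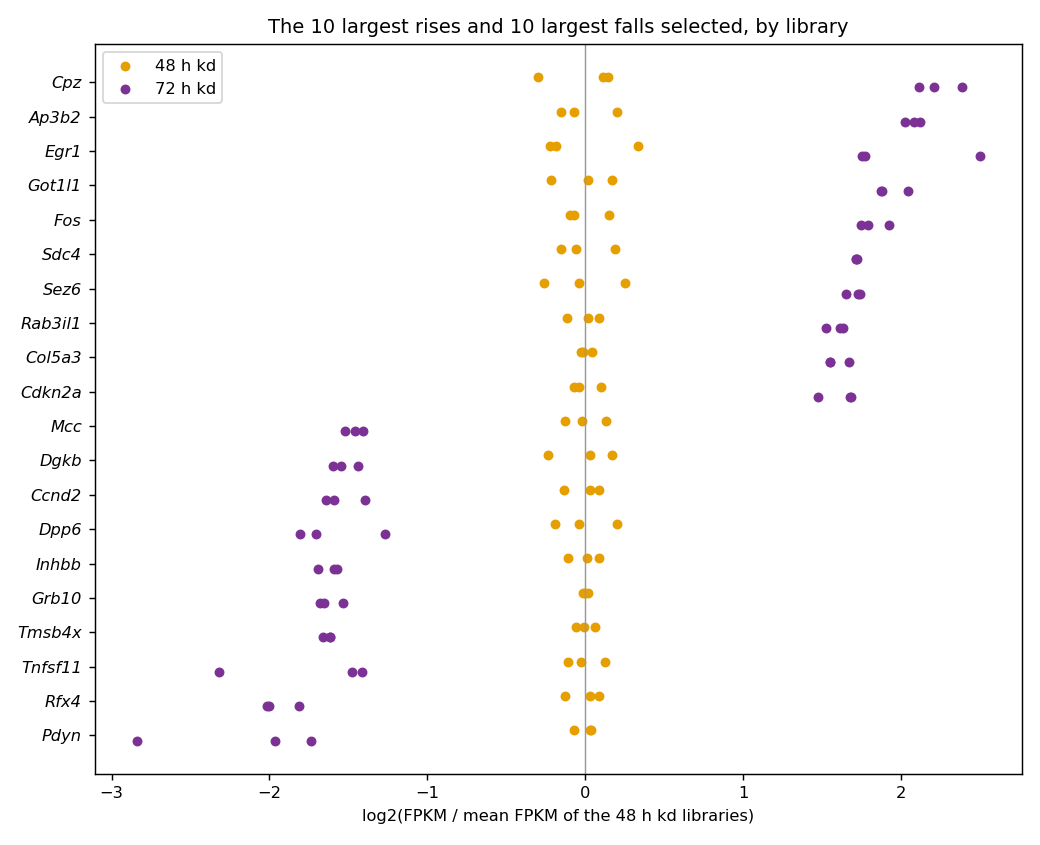
FPKM of each library divided by the mean of the 48 h kd libraries, on a log2 axis, for the 10 largest rises and 10 largest falls among called genes that met the naming rule. The naming rule admitted genes in which the 72 h kd libraries (purple) lay outside the range of the 48 h kd libraries (orange).

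Neuronal transcripts were among the falls. Of 26 tested genes of neurons and synapses, 11 were called lower and 1 higher, where 5.72% of all tested genes were called lower, and the median change of the list was -0.33 against 0.023 over all genes. The summed level of the list was 806 to 870 RPM at 48 h kd and 684 to 688 RPM at 72 h kd. The neurofilament chains Nefl and Nefm, which give axons their calibre, fell by 1.53 and 1.43 on the log2 scale. Nefl measured 6.24, 6.44 and 6.75 FPKM at 48 h kd and 2.19, 2.3 and 2.2 FPKM at 72 h kd, without overlap. The listed span of Nefm contains that of Nefl, and their reads are not separate. Nefm had 408, 428 and 428 reads at 48 h kd and 174, 165 and 185 at 72 h kd. Nefl had 376, 395 and 391 reads at 48 h kd and 147, 149 and 153 at 72 h kd. The fall of Nefm can therefore be that of Nefl counted again among the 11, and its own change is uncertain. Ncam1, the neural cell adhesion molecule, went from 0.0404, 0.0434 and 0.0326 to 0.0137, 0.0136 and 0.0099 FPKM (log2 -1.63, SE 0.20, limma adjusted p = 0.00193).

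Genes of the axonal cytoskeleton and the growth cone were among the 11. Dpysl3 and Crmp1, which encode collapsin response mediator proteins, fell by 1.37 and 0.79 on the log2 scale, Gap43, a growth cone protein, by 1.30, and Map2, a dendritic microtubule protein, by 0.65. Tubb3, the neuronal beta tubulin, went from 15.9, 12 and 15.5 to 7.16, 7.12 and 7.49 FPKM (log2 -0.99, SE 0.11), and its span lies within that of another listed gene with more reads. Syt1, the calcium sensor of vesicle release, Scg3, a granin of secretory granules, and Elavl3, a neuronal RNA-binding protein, fell by 1.27, 1.50 and 0.84. Scg3 had a mean of 13.3 reads, with 9, 7 and 5 at 72 h kd, and passed the read minimum through its 48 h kd libraries. Cplx2, a complexin that clamps synaptic fusion, was the one member called higher, at 0.82. Syp (0.57) and Snap25 (0.51) were not called with 6 libraries. Without 48 h kd replicate 2 both were called higher (0.68 and 0.77). All 12 calls of the list held without 48 h kd replicate 2, when 3 members were called higher and 11 lower.

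The lists of neural progenitor and primed epiblast genes held calls lower as well, where 6.84% of all tested genes were called higher and 5.72% lower. Of 13 tested neural progenitor genes (of 27 listed), 4 were called lower and none higher: Nkx6-3 by 1.14, Gbx2 by 1.13, Sox3 by 0.69 and Sox11 by 0.61 on the log2 scale, the last not without 48 h kd replicate 2. The list median was -0.053, near 0. Gbx2, which places the boundary between midbrain and hindbrain and is also known in ESC, went from 47.7, 45.6 and 51.5 to 20.5, 21.8 and 23.9 FPKM, and its mean at 48 h ctrl was 26.9 FPKM. Of 17 tested genes of the primed epiblast, 6 were called lower and 2 higher (6 and 1 without 48 h kd replicate 2), with a median of -0.17. Fgf15 fell by 1.26, Lef1 by 1.30, Cdh2, which encodes N-cadherin, by 1.02 and Pou3f1, the factor Oct6, by 0.76. Car14 (0.94) and Krt18 (0.65) were higher, Krt18 not without that library (0.57). Of 26 tested axon guidance genes, 2 were called higher, Slit2 and Efna1, and 3 lower, Efnb2, Nrp2 and Sema6a (3 and 4 without 48 h kd replicate 2), with a list median of 0.17.

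Of 22 tested genes of the naive pluripotency network, 2 were called, where 12.6% of all tested genes were, and 9 had an adjusted p under 0.05. Tcl1, a coactivator of Akt, rose from 18.7, 17.3 and 20.5 to 34.5, 33.9 and 34.4 FPKM (log2 0.87, SE 0.067, limma adjusted p = 0.000579). Lifr, the receptor of LIF, was called lower at -0.59 and not without 48 h kd replicate 2 (-0.52). The changes of Pou5f1 (-0.26), Sox2 (0.48) and Nanog (0.27) stayed under the threshold of 0.58. The list median was 0.027, near that of all genes.

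Lysosomal genes were among the rises. Lysosomes digest proteins, glycolipids and organelles, and many of their genes share an E-box that the factor Tfeb binds. Of 26 tested genes, 10 were called higher and none lower, where 6.84% of all genes were called higher. The list median was 0.40, and 22 of the 26 changes were above 0. The summed level of the list was 2286 to 2500 RPM at 48 h kd and 3274 to 3295 RPM at 72 h kd. Sqstm1, the autophagy receptor p62, measured 17.5, 13.9 and 16.4 FPKM at 48 h kd and 32.3, 33.1 and 33.6 FPKM at 72 h kd (log2 1.06, SE 0.087, limma adjusted p = 0.000655). Hexa, the alpha chain of the hexosaminidase that degrades gangliosides, went from 3.19, 2.89 and 3.22 to 5.8, 5.59 and 5.69 FPKM (log2 0.88). Psap, the precursor of the saposins, went from 5.41, 5.07 and 5.38 to 8.86, 8.64 and 8.62 FPKM (log2 0.72). In each of these genes all 72 h kd libraries lay above all 48 h kd libraries.

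The remaining lysosomal calls were proteases and other proteins of the lumen. Ctsh had the largest change (1.22) at a mean of 21.7 reads, and Ctsa, Ctsb, Ctsc, Grn, Neu1 and Npc2 changed by 0.58 to 0.66. Ctsa overlaps Pltp on the chromosome, so that their reads are not separate. Ctsd (0.56) did not reach the fold threshold, and Lamp1 (0.17), Npc1 (0.15) and Tfeb (-0.21) changed by less. Without 48 h kd replicate 2, 8 of the 26 genes were called higher, and with the trend in GC content and gene span removed 6, so that the number of calls depends on genes close to the threshold while the list median stayed at 0.40 to 0.44.

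The letters CACGTG, an E-box that reads the same on both strands, were looked for in 300 bases around each gene start (250 before and 50 after, RefSeq, GRCm38.p6). They stood in the window of 8 of 20 lysosomal genes that have one (40%), of 11.7% of tested genes and of 8.09% of all genes with a window. Of genes called higher 8.57% held them, and of genes called lower 9.47%. The windows of Ctsa (chr2:164833523-164833822, + strand, the second of its 2 listed starts, the window of the first holding none) and Ctsd (chr7:142387778-142388077, − strand) are shown as examples, with each CACGTG in capitals.
Ctsa promoter: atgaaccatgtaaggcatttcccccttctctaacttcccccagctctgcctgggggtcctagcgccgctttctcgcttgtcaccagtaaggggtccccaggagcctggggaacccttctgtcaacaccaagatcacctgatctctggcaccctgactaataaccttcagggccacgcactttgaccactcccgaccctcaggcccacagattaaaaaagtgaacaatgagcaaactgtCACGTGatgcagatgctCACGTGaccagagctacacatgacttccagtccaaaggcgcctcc
Ctsd promoter: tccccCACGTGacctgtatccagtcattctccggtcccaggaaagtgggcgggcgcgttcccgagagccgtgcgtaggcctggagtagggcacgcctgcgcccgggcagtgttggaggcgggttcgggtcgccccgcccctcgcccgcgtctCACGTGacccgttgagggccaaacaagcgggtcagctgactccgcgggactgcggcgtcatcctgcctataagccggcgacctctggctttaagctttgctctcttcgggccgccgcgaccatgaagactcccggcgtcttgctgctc
These windows hold the motif 2 times each. A match describes the letters in the window and no binding was measured.

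Genes of cholesterol synthesis and uptake leaned upwards by a small amount. Sterols are made from acetyl-CoA in the mevalonate pathway, whose genes are switched on together by the factor Srebf2 with NF-Y and Sp1 at CCAAT and GC boxes. Of 25 tested genes 24 had a change above 0, with a median of 0.44, and 5 were called higher and none lower, where 6.84% of all tested genes were called higher and 5.72% lower. Mvk, mevalonate kinase, measured 1.55, 1.14 and 1.32 FPKM at 48 h kd and 2.22, 2.13 and 2.3 FPKM at 72 h kd (log2 0.74, SE 0.11, limma adjusted p = 0.00373). Nsdhl, which removes methyl groups from the sterol ring, changed by 0.68, Tm7sf2 by 0.59 and Fdps, the farnesyl diphosphate synthase, by 0.59. In Mvk and Nsdhl the second 48 h kd library was the lowest of its group, and without it the changes were 0.63 and 0.58. The median over the list was 0.44 without 48 h kd replicate 2, when 4 were called higher.

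The letters CCAAT, or ATTGG on the other strand, stood in 16 of 17 cholesterol gene windows (94.1%), in 43.1% of those of tested genes and in 41.1% of all. GGGCGG, or CCGCCC on the other strand, stood in 16 of 17 as well, in 67.5% of those of tested genes and in 38.2% of all. The windows of 2 of the genes called are shown to let the repeated boxes be seen, with CCAAT and ATTGG in capitals (Mvk, chr5:114444019-114444318, + strand, 5 boxes; Nsdhl, chrX:72918271-72918570, + strand, 4 boxes).
Mvk promoter: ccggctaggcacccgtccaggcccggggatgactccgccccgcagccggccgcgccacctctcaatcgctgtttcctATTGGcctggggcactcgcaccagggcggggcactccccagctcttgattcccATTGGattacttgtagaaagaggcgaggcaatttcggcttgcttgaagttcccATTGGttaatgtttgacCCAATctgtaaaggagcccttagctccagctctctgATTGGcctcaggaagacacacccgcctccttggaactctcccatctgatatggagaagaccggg
Nsdhl promoter: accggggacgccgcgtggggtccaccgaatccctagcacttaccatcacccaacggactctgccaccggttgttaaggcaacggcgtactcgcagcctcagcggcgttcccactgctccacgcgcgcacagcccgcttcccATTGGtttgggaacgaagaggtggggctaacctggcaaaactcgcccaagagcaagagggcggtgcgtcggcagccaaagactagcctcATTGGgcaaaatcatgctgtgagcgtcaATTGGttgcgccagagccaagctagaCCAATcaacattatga
Among all genes called higher, 41.6% held the CCAAT letters, and among those called lower 42.2%, close to all tested genes. The GC box letters stood in 68.9% of windows of genes called higher and in 52.7% of those called lower.

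**Figure D4:**
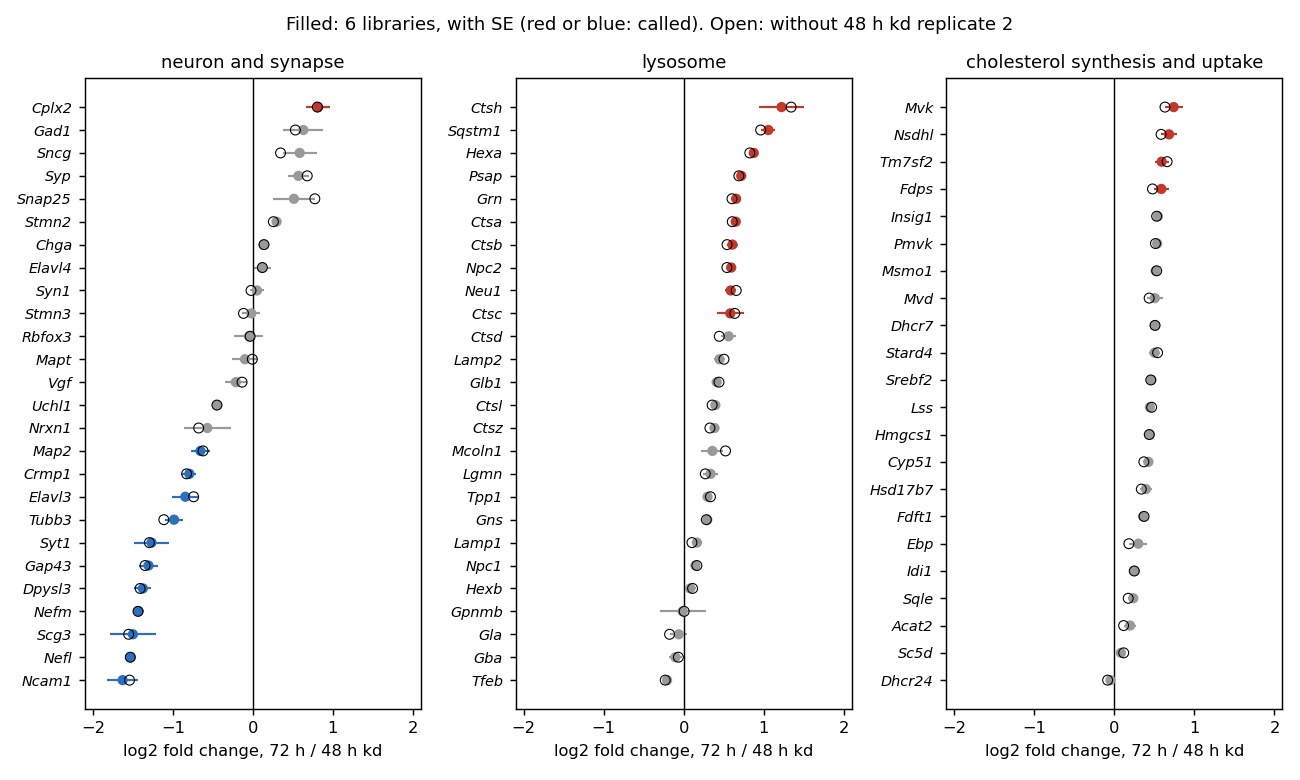
Log2 fold change of 72 h kd over 48 h kd for tested genes of 3 lists, with all 6 libraries (filled, with SE, red or blue where called) and without 48 h kd replicate 2 (open). Neuronal genes reached down to -1.63, while lysosomal and cholesterol genes lay mostly above 0 with medians of 0.40 and 0.44.

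Carriers of lipids changed in both directions. Of 14 tested genes, 6 were called higher and 3 lower, against 6.84% and 5.72% of all tested genes. Beside Fabp3 and Apoe, Apoc1, a small apolipoprotein whose gene lies next to Apoe, went from 3.39, 3.03 and 3.78 to 6.93, 6.64 and 6.89 FPKM (log2 1.01, SE 0.081). Pltp, the phospholipid transfer protein, changed by 1.50, and its reads are not separate from those of Ctsa. Scarb1, the receptor of HDL, and Plin2, which coats lipid droplets, changed by 0.68 and 0.62, the last under the threshold without 48 h kd replicate 2 (0.47). The receptors Vldlr and Lrp2 fell by 0.91 and 0.81 on the log2 scale, and Abca1, which exports cholesterol, by 0.70. Of 25 tested genes of fatty acid oxidation, Cpt1b (1.22), the muscle-type carnitine transferase, and Acadvl (0.66) were called higher, both with an overlapping gene that had more reads, a count near the share of all genes called higher.

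Regulators of the G1 phase changed in both directions. Of 20 tested G1 cyclins and CDK inhibitors, 3 were called higher and 4 lower, where 6.84% of all tested genes were called higher and 5.72% lower. The 3 rises were the inhibitors Cdkn2a (1.58), Cdkn2b (1.42) and Cdkn1a (1.05). Cdkn1a, which encodes p21, measured 7.66, 7.31 and 7.81 FPKM at 48 h kd and 15.7, 16 and 15.4 FPKM at 72 h kd (SE 0.044, limma adjusted p = 0.000176). Cdkn2a, which encodes p16 and p19Arf, went from 0.133, 0.118 and 0.121 to 0.345, 0.397 and 0.399 FPKM, and its mean at 48 h ctrl was 0.2 FPKM. Neither gene had overlapping ranges. Another inhibitor, the imprinted Cdkn1c, fell by 0.94 on the log2 scale.

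The cyclins fell where they were called. Ccnd2 fell by 1.52, Ccne2 by 0.96 and Ccnd1 by 0.79 on the log2 scale. Ccnd1 measured 19.6, 17.2 and 20 FPKM at 48 h kd and 10.8, 10.8 and 11.1 FPKM at 72 h kd. Myc, the growth factor-dependent transcription factor, went from 23.8, 23.4 and 25.2 to 9.53, 9.88 and 11.3 FPKM (log2 -1.24, SE 0.072, limma adjusted p = 0.000343), and its mean at 48 h ctrl was 11.4 FPKM. Of 32 genes of DNA replication and mitosis limma called none (16 had an unadjusted and 10 an adjusted p under 0.05, and voom called 0), with a median of -0.0068, and the changes of Mki67 and Pcna were 0.10 and 0.16. Of 20 tested p53 targets, 4 were called higher, Cdkn1a, Plk2, Phlda3 and Btg2, and Perp was lower, and 19 of the 20 changes were above 0, where 6.84% of all tested genes were called higher and 5.72% lower. Phlda3 and Btg2 lost the call without 48 h kd replicate 2, when 2 of the p53 targets were called higher and 1 lower. With the trend in GC content and gene span removed, 16 of the 20 changes were above 0.

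Few replication-dependent histone genes could be tested. Their mRNAs end in a stem-loop and carry no poly(A) tail as a rule, and 7 of 67 listed genes had enough reads to be tested. These 7 were called lower (6 without 48 h kd replicate 2), where 5.72% of all tested genes were called lower. Hist3h2a went from 2.87, 2.58 and 2.52 to 0.837, 1.02 and 1.12 FPKM and Hist1h4i from 2.03, 2.35 and 2.48 to 0.86, 1 and 0.932 FPKM. Their mean reads were between 13.8 and 74.7, so that a gene could pass the read minimum through its higher group, and no direction is given for the list as a whole. Copies of these genes are nearly identical and share reads, so that single values are uncertain. Hist1h2be was the one not called without that library.

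Immediate early genes were higher in part. These genes respond within minutes to serum and growth factors, without new protein synthesis. Of 17 tested, 5 were called higher and 1 lower, against 6.84% and 5.72% of all tested genes. Fos went from 0.821, 0.706 and 0.694 to 2.82, 2.49 and 2.56 FPKM (log2 1.79, SE 0.086), Egr1 rose by 2.02, and Dusp1, a phosphatase of MAP kinases, Jun and Btg2 rose by 0.58 to 0.72. Fosl2 fell by 1.17. Without 48 h kd replicate 2, Fos, Egr1 and Dusp1 remained called. Of 20 tested genes of FGF signalling and ERK feedback, 4 were called higher, and these were Egr1, the receptors Fgfr3 (1.02) and Fgfr4 (0.88) and Dusp4 (0.61), the last not without 48 h kd replicate 2 (0.50). The median of that list was -0.084, with 13 of the 20 changes below 0.

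Genes of the TGF-beta family moved on both sides of the Nodal and BMP branches. Of 20 tested, 7 were called higher and 3 lower (6 and 3 without 48 h kd replicate 2), where 6.84% of all tested genes were called higher and 5.72% lower. Lefty1 and Lefty2, which inhibit Nodal and are induced by it, had many reads. Lefty1 measured 45.1, 38.7 and 44.9 FPKM at 48 h kd and 94.7, 96.6 and 100.2 FPKM at 72 h kd (log2 1.18, SE 0.073, limma adjusted p = 0.000394), and Lefty2 changed by 0.77. The ligand Bmp7 rose by 1.43. Id1, a target of BMP signals in ESC, went from 78.2, 73.7 and 82.4 to 38, 38.4 and 39.4 FPKM (log2 -1.01, SE 0.056), and Id2 fell by 0.74, while Id3 and Id4 were called higher at 0.58 and 0.72. The Id genes thus did not move together, and Id3 lost its call without 48 h kd replicate 2 (0.49).

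Of the targets of Wnt signalling, more fell than rose. Of 16 tested, 5 were called lower and 1 higher, against 5.72% and 6.84% of all tested genes, and the list median was -0.26, or -0.10 without 48 h kd replicate 2. Lef1, Notum, Sp5, Ccnd1 and Axin2 fell by 1.30, 1.01, 0.84, 0.79 and 0.68 on the log2 scale, and Nkd1, like Axin2 a feedback inhibitor of the pathway, rose by 1.48. Notum, a secreted enzyme that inactivates Wnt ligands, went from 5.84, 7.71 and 6.27 to 3.3, 3.41 and 3.09 FPKM. Of 14 tested genes of the Notch pathway, the receptors Notch3 (0.88) and Notch1 (0.63) and the glycosyltransferase gene Lfng (0.77) were called higher and none lower. Notch3 went from 1.5, 1.58 and 1.46 to 2.82, 2.74 and 2.78 FPKM.

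Of 17 tested genes of the retinoic acid pathway, 7 were called higher and 3 lower, where 6.84% of all tested genes were called higher and 5.72% lower. Stra6, the receptor for retinol bound to its carrier, Stra8, an inducer of meiosis, Crabp2, a carrier of retinoic acid, and Meis2 rose by 1.57, 1.24, 1.06 and 1.05, at means of 21.2 to 37 reads. Aldh1a2, which makes retinoic acid, and the receptor gene Rarg fell by 0.82 and 0.59. Rarg measured 12.7, 12.8 and 13.4 FPKM at 48 h kd and 8.64, 8.59 and 8.58 FPKM at 72 h kd. Rxrg, called lower, had 5, 0 and 3 reads in the 72 h kd libraries and fell below the read minimum without 48 h kd replicate 2. Of 38 Hox genes, 3 were tested, and 2 were called higher and 1 lower. Among them Hoxc13 (0.85) was higher and Hoxd13 (-0.95) lower, both at means under 15 reads.

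Of 26 tested genes of the basement membrane and matrix, 5 were called higher and none lower, with a median of 0.32, where 6.84% of all tested genes were called higher and 5.72% lower. With the trend in GC content and gene span removed, 3 were called higher and 1 lower. Fn1, fibronectin, not called with that trend removed, went from 7.23, 7.2 and 6.86 to 11.4, 11 and 11 FPKM (log2 0.65, SE 0.044), where the mean at 48 h ctrl was 13.1 FPKM. Serpinh1, the collagen chaperone, changed by 0.84, Lamb2 by 0.73, Fbln2 by 0.97 and Agrn by 0.61. Without 48 h kd replicate 2, 9 of the list were called higher. Of 36 tested genes of adhesion and junctions, 6 were called higher and 2 lower (6 and 3 without that library). With the trend in GC content and gene span removed, 4 were called higher and 3 lower, and the list median went from 0.12 to -0.018. The claudins Cldn3 (1.21), Cldn4 (0.76) and Cldn9 (0.69) of tight junctions were among the rises, and Emp1 fell by 1.50, from 0.358, 0.293 and 0.249 to 0.0985, 0.106 and 0.102 FPKM, where the 48 h ctrl mean was 2.48 FPKM. Of 27 tested genes of actin and intermediate filaments, 5 were called higher and 2 lower (4 and 2 without that library). The keratin genes split, with Krt19 (0.83) and Krt18 (0.65, not called without that library) higher and Krt17 (-1.09) and Krt42 (-0.72) lower.

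Factors of the trophoblast also split. Of 12 tested genes, 3 were called higher and 3 lower (2 and 3 without 48 h kd replicate 2), against 6.84% and 5.72% of all tested genes, and the summed level of the list was 518 to 535 RPM at 48 h kd and 524 to 542 RPM at 72 h kd. Tfap2c, which trophoblast, germ cells and ESC share, measured 5.94, 5.62 and 5.52 FPKM at 48 h kd and 16.9, 16.7 and 16.3 FPKM at 72 h kd (log2 1.54, SE 0.045, limma adjusted p = 0.000102). Esx1, a homeobox gene on the X chromosome, changed by 1.41. Gata2 fell by 2.21 at a mean of 32.8 reads, and Id2 and Peg10 by 0.74 and 0.60. Of 20 tested germline and maternal genes, 4 were called higher, among them Khdc3 (0.96), Dazl (0.69) and Tex19.1 (0.68), and 3 lower, Tdrd1, Stk31 and Zp3 (3 and 3 without that library). Of 16 tested interferon-linked genes, 3 were called higher and 3 lower. B2m, the light chain of MHC class I, Ly6e and Bst2 rose by 1.02, 0.72 and 0.72, and Ifit2, an effector, and Ddx58, a sensor of viral RNA, fell by 1.36 and 0.63.

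Metabolic and stress lists are given beside the 12.6% of all tested genes that were called, and no difference between the lists was tested. Of 20 tested genes of glycolysis, Aldoc (1.40), Ldhb (1.32) and Pfkm (0.63) were called higher (4 higher and 1 lower without 48 h kd replicate 2). Ldhb, a subunit of lactate dehydrogenase, went from 3.79, 3.38 and 4.03 to 9.26, 9.74 and 8.94 FPKM. The list median was 0.072, and limma called none of 19 tested genes of the hypoxia response (11 had an unadjusted and 9 an adjusted p under 0.05, and voom called 0), or 1 without that library. Of 23 tested genes of redox defence, Gpx4, which reduces lipid peroxides, rose by 1.07, Gstm1 rose by 0.84 and Hmox1, heme oxygenase 1, fell by 0.81 (2 higher and 2 lower without that library). Hmox1 went from 32.4, 27.1 and 33.3 to 18.2, 17.5 and 17.1 FPKM, where the 48 h ctrl mean was 15.6 FPKM. The amino acid stress response had 0 genes called higher and 2 lower of 29, ER chaperones 1 higher of 18 and heat shock genes 1 lower of 15. Among 10 tested genes of the primitive endoderm, Lrp2 was called lower (1 higher and 2 lower without that library), and limma called none of 4 of the mesendoderm (2 had an unadjusted and 0 an adjusted p under 0.05, and voom called 0). Myc, lower, was the one call of 12 in the Myc and Mxd family, and Tubb3, lower, the one of 12 tubulins.

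Lists of chromatin genes held few calls. Of 28, 28 and 12 tested genes, 5 were called lower, a count near the share of all genes, and none higher. Of all tested genes 6.84% were called higher and 5.72% lower. The list medians were -0.042 for BAF subunits, -0.032 for Polycomb genes and -0.15 for DNA methylation. Of 28 tested genes of BAF subunits, Bcl11a (-0.95) and Dpf1 (-0.62), both known from neural forms of the complex, were called lower, Dpf1 not without 48 h kd replicate 2. Of 28 tested Polycomb genes, Eed, a core subunit of PRC2, went from 10, 10.3 and 10.1 to 6.44, 6.89 and 6.28 FPKM (log2 -0.63, SE 0.049, limma adjusted p = 0.000579). No other was called in the main fit, while 12 of the 28 had a limma adjusted p under 0.05. With the trend in GC content and gene span removed, 3 were called lower and none higher. Among the Polycomb genes 1 was called higher and 1 lower without 48 h kd replicate 2. Of 12 genes of DNA methylation, Dnmt3b, a de novo methyltransferase, and Tet2, which oxidises methylcytosine, fell by 0.72 and 0.81. Dnmt3b measured 7.73, 7.71 and 8.02 FPKM at 48 h kd and 4.7, 4.75 and 4.77 FPKM at 72 h kd.

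Of the imprinted genes, more fell than rose. Of 26 tested, 8 were called lower and 1, H19, higher, against 5.72% and 6.84% of all tested genes. Beside Grb10, Nnat fell by 1.19, Dlk1 by 1.15 and Usp29 by 0.83. Kcnq1ot1 and Airn, long RNAs antisense to Kcnq1 and Igf2r, fell by 1.36 and 1.16, and without strand their reads cannot be told from those of their partners. Without 48 h kd replicate 2, 6 were called lower and none higher. Long non-coding RNAs and snoRNA hosts had 4 of 25 called lower and none higher. Beside Bc1 these were Neat1 (-1.19), which builds paraspeckles, Platr22 (-0.83) and Rmrp (-1.13). Neat1 measured 8.38, 13 and 8.75 FPKM at 48 h kd and 4.31, 4.81 and 3.88 FPKM at 72 h kd, with the second 48 h kd library far above the other 2, and without it the change was -0.99.

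Ribosomal protein and respiratory chain genes are given beside the 6.84% of all tested genes called higher and the 5.72% called lower. Of 85 tested genes of cytosolic ribosomal proteins limma called none (46 had an unadjusted and 32 an adjusted p under 0.05, and voom called 0), while 76 had a change above 0 and the median was 0.18. Of 76 nuclear genes of oxidative phosphorylation, 2 were called higher and 1 lower. Of 13 mitochondrially encoded proteins, 7 were tested and limma called none (3 had an unadjusted and 0 an adjusted p under 0.05, and voom called 3), at a median of -0.56 that became -0.22 without 48 h kd replicate 2, the library with the most mitochondrial reads. Of 21 genes of the 2-cell-like state in the files none had enough reads.

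**Figure D5:**
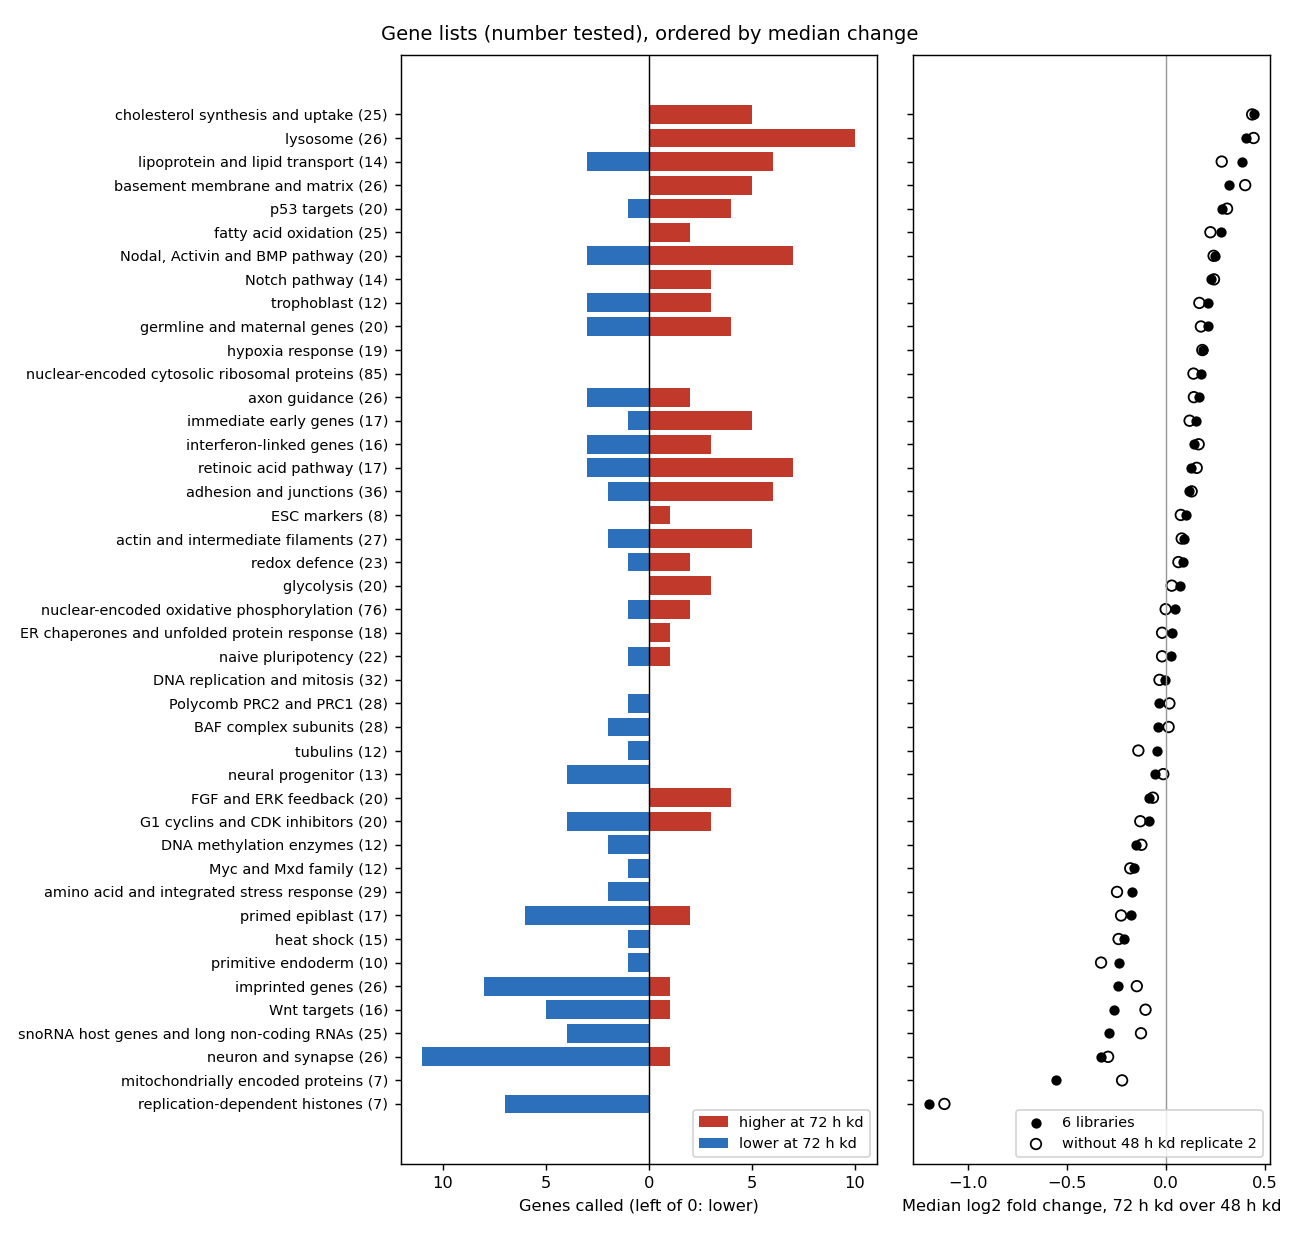
For each list of at least 5 tested genes (number tested in brackets), the left panel gives the number of genes called higher (red) and lower (blue) at 72 h kd and the right panel the median log2 fold change with 6 libraries (filled) and without 48 h kd replicate 2 (open). Lysosomal and cholesterol genes stand at the top and neuronal genes near the bottom, and the list of histones rests on 7 tested of 67 listed genes.

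The direction of the calls turned over with the GC content of the transcripts, while the median change rose with it by a small amount. Genes were compared in equal groups of 3154 by GC content. In the fifth of genes with the lowest GC content (18.1% to 43.9%) the median change was -0.095 and 85 genes were called higher and 244 lower. In the fifth with the highest (55.7% to 91.9%) it was 0.15, with 383 higher and 125 lower. The medians without 48 h kd replicate 2 were -0.066 and 0.16, of the same order as with 6 libraries. With a trend in GC content and gene span removed, 934 genes (5.92%) were called higher and 917 (5.81%) lower. Of the called genes named in the results, Pdgfrb, Lifr, Krt18, Sox11, Tm7sf2, Pfkm, Phlda3, Fn1, Peg10, Dusp4, Jun, Notch1, Agrn, Ctsa, Fdps, Grn, Id3, Neu1, Npc2, Plin2 and Usp29 were not called then. Under it, the neuronal list had 11 calls lower and 2 higher, the lysosomal list had 6 higher and none lower, and the cholesterol list 3 higher. Of 362 tested long intergenic non-coding RNAs, 75 were called lower and 23 higher, with a median of -0.26, and -0.14 without 48 h kd replicate 2. Of 13288 tested protein-coding genes, 603 were called lower and 909 higher. Whether GC content or transcript class had a part in the changes of single genes was not tested.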

How the data were processed

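RNA was sequenced as single reads from 15 libraries of 81K1 cells, 3 in each of 5 groups taken from the sample labels. The authors aligned the reads to mm10 (GRCm38) with STAR 2.7.0c, counted reads per gene in R 4.0.3 and tested the counts with DESeq2 1.30.0. The deposited values are FPKM for each of 55228 genes, calculated by the authors over the whole gene span, introns included. Multiplied by span and library total, 100% of the values were whole reads (tolerance 0.001). Of the genes, 96.5% matched GENCODE M21, which gave gene types, strand and GC content.

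The 3 libraries of 72 h kd and the 3 of 48 h kd were compared with limma 3.58.1 in R 4.3.3 (a trend in the prior variance, two-sided) on log2(FPKM + the FPKM of 1 read), for genes that averaged 10 reads or more. This pseudocount pulls the changes of genes with few reads towards 0. Calls needed a Benjamini-Hochberg adjusted p-value below 0.05 and a log2 fold change beyond 0.58 in either direction, as in the study. All adjusted p-values given are limma's. With 3 libraries a group, exact permutation cannot reach 0.05 and was left out. On simulated data for this comparison, with 16185 genes tested, 127 of 194 genes changed 2-fold were recovered (65.5%), and 82.8% of those with at least 50 reads, with 7 false calls. The simulation changed 200 genes, where 5938 had a limma adjusted p under 0.05 in the data. Its noise was drawn separately for each gene, with no outlying library and no GC trend. Its rates therefore need not hold for these data.

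Genes named are Smarcb1, Fabp3, Bc1 and Apoe, the 10 largest rises and 10 largest falls among called protein-coding genes that averaged 50 reads or more and had groups that did not overlap, also called without 48 h kd replicate 2, not predicted and not overlapping a gene with more than 20% of their reads, and up to 4 called members in each direction of each of 47 gene lists. Further list members were named after their values were seen. Some members of the lists are counted in them and are not reported here by name. The members of the comparison, the lists and the tests were chosen with earlier results of these data known. The lists hold no independent evidence of their direction, and no test of a list was made. Promoter windows and their sequences are from RefSeq (GRCm38.p6), and motifs were counted on both strands. Alternatives were other pseudocounts, read minimums, scalings, tests and thresholds, the replicate number as a block and each library left out. Chosen after seeing the data were the removal of a GC and span trend, and limma voom on the recovered reads, each without 48 h kd replicate 2.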

Additional observations from a re-analysis of the deposited data

How the results depend on the processing

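The number of genes called depends most on how genes with low FPKM are treated. In place of 2022 (1101 higher and 921 lower), a pseudocount of 0.1 FPKM gave 1155 (645 and 510), a pseudocount of 1 FPKM gave 306 (170 and 136), a minimum of 50 reads gave 1196 (715 and 481) and a minimum of 0.5 FPKM with a pseudocount of 0.1 FPKM gave 857 (479 and 378). By its construction a pseudocount in FPKM shrinks the changes of genes with low FPKM. An adjusted p-value under 0.01 left 1314 (791 and 523), no fold minimum 5938 (3335 and 2603) and a log2 change above 1 left 607 (270 and 337). The other settings stayed within 1.5 times the counts in both directions, among them limma voom on the recovered reads (2101), the GC and span trend removed (1851) and 1 fit of all 15 libraries (2124).

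With 1 library left out, 1728 to 2076 genes were called, 955 to 1191 higher and 739 to 1004 lower, and the change of Smarcb1, which was not called in any setting, was between -0.34 and 0.0099. It was above 0 without 48 h kd replicate 2 (0.0099) and in voom without that library (0.0085). Of the 2022 genes called, 1602 were called again without 48 h kd replicate 2, against 1728 in voom and 1469 with the GC and span trend removed, each counted within its own test. Whether the replicate numbers pair the libraries was not settled. Deviations from the group mean had correlations of 0.025, 0.13 and 0.050 for same-numbered libraries and of -0.13 to 0.096 for the others. Deviations from a mean of 3 libraries depend on each other, so that these values cannot decide it. The replicate block gave 2011 calls (1092 higher and 919 lower). Of 166 named genes with a call, 56 kept it in every setting that tested them and none changed its sign.

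With 11074998 to 13277221 reads per library, changes of about 2-fold or less in genes with few reads are easily missed, and intervals cover the spread between 3 libraries only.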
